A study of Homo sapiens with 8 samples.

Results

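The 34 genes described here encode the enzymes of glycolysis, the transporters that carry glucose in and lactate out, the enzymes that set the fate of pyruvate, and TXNIP, a brake on glucose uptake. They are the entries of the deposited gene table whose name matches a list of 34 symbols, out of 57905 genes listed. All 34 were found, and all 34 are among the 25982 genes that entered the test. RNA sequencing was done on PC3 and DU145, established human lines grown from a bone and a brain metastasis of prostate cancer. A lentivirus that carries TRIB1 raised that gene in each line, and an empty lentivirus served as the control. TRIB1 encodes a pseudokinase that presents substrate proteins to a ubiquitin ligase. The 4 groups are PC3 TRIB1, PC3 control, DU145 TRIB1 and DU145 control, with 2 libraries each. All 8 libraries come from cells that received a lentivirus, so no uninfected cells are in the comparison. The labels name no promoter or clone for the construct and do not say whether the 2 libraries of a group came from separate cultures, and the p-values therefore rest on a spread that may be technical. The question is what more TRIB1 does to transcript levels in each line.

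Glycolysis turns glucose into pyruvate through a chain of cytosolic enzymes. Its pace is held mainly at hexokinase, phosphofructokinase and pyruvate kinase, and at uptake through the glucose transporters. Pyruvate is then reduced to lactate by lactate dehydrogenase and leaves through monocarboxylate transporters, or enters the mitochondrion and is oxidised by the pyruvate dehydrogenase complex, which pyruvate dehydrogenase kinases switch off. Many cancer cells make lactate even where oxygen is present, and normal prostate epithelium is known for a metabolism that holds back citrate oxidation.

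Values are in TPM, which are numbers of transcripts of a gene scaled by gene length and to the same total in every library, so that levels of different genes can be set side by side and a level is a share of the whole. TPM does not carry the depth of a library, which is therefore unknown. Between 30398 and 31694 genes were above 0 in a library. TRIB1 itself stood at 241 and 245 TPM in the PC3 TRIB1 libraries against 45.1 and 50.8 TPM in the PC3 controls, and at 69.4 and 62.3 TPM in the DU145 TRIB1 libraries against 10.1 and 7.94 TPM in the DU145 controls. The second DU145 TRIB1 library stood apart, with 86.2% of its TPM in protein-coding transcripts against 88.7% to 90.6% in the other 7 libraries. Both lines carried the epithelial genes EPCAM, CDH1, KRT8, KRT18 and KRT19, and the prostate antigen KLK3 was at 0 to 0.186 TPM. The 5 epithelial genes summed to 2815 and 2770.2 TPM in the PC3 TRIB1 libraries against 1453 and 1505 TPM in the PC3 controls, and their part in the results below was not tested. The 5 leukocyte markers summed to at most 3.62 TPM and the 3 endothelial markers to at most 3.56 TPM in any library. The 5 fibroblast markers, nearly all COL1A1, summed to 45.4 and 41.5 TPM in the PC3 TRIB1 libraries against 58.5 and 70.8 TPM in the PC3 controls, and to 55.5 and 53.0 TPM in the DU145 TRIB1 libraries against 68.9 and 64.4 TPM in the DU145 controls. The 7 prostate luminal markers summed to 38.0 and 35.0 TPM in the PC3 TRIB1 libraries against 61.2 and 65.6 TPM in the PC3 controls, and to 8.94 and 8.05 TPM in the DU145 TRIB1 libraries against 15.0 and 13.6 TPM in the DU145 controls. The part of both lists in the results was not tested. These are bulk libraries, so fewer cells that hold a transcript and less of it per cell cannot be told apart.

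In PC3, glycolytic transcripts fell with TRIB1 along almost the whole chain. The 34 genes summed to 11908 and 11550.3 TPM in the PC3 TRIB1 libraries against 17337 and 17363 TPM in the PC3 controls, which is 1.19% and 1.16% of all TPM against 1.73% and 1.74%. The sum was 32.4% lower. In DU145 the same sum was 13020.0 and 12031 TPM in the TRIB1 libraries against 12098 and 12102 TPM in the controls, 3.52% higher, with the second TRIB1 library below both controls. No test was made of sums, because an exact permutation of 2 libraries against 2 cannot give a p below 0.333.

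Gene by gene, limma on log2(TPM + 1) found 19 of the 34 lower and 6 higher in PC3 TRIB1 cells at an adjusted p below 0.05, while 9 did not pass. Of all 25982 genes tested, 9.33% were lower and 7.67% higher at that threshold. The median log2 change was -0.41 over the 34 genes and -0.008 over all genes. The words rose and fell are used for this threshold alone, and a gene is called where its log2 change is also over 1 in size, the cutoff stated for the series. By that stricter rule 7 of the 34 were called lower, against a background of 2.67%, and 0 were called higher by limma, against 2.52%, and 0 at an unadjusted p below 0.05 with the same fold. The 7 were PFKFB4, PFKFB3, ALDOC, PFKP, SLC16A3, ENO2 and PFKL. In 24 genes both PC3 TRIB1 libraries lay below both PC3 controls, and in 8 they lay above, where 29.8% and 24.5% of all genes did so. Of the 19 falls, 14 passed under every alternative processing tried and without any 1 of the 8 libraries (ALDOC, ENO1, ENO2, GPI, HK1, PDK1, PFKFB3, PFKFB4, PFKL, PFKP, PGAM1, PGK1, PKM and SLC16A3).

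In DU145 only 5 of the 34 genes fell (HK2, PFKL, PFKFB4, ENO2 and PDK1), against 2.01% of all genes, and 0 rose by limma at an adjusted p below 0.05, against 0.712%. At an unadjusted p below 0.05 the DU145 counts were 12 lower and 6 higher. None was called in either direction, where the background is 0.804% lower and 0.312% higher, and at an unadjusted p with the same fold 1 was lower (TXNIP) and 0 higher. The median log2 change was -0.049 over the 34 genes and -0.044 over all genes. Both DU145 TRIB1 libraries lay below both controls in 16 genes and above them in 9, against 29.7% and 17.6% of all genes. None of the 5 falls held through all 8 fits that left 1 library out. HK2 did not pass without any 1 of the 8 libraries (adjusted p up to 0.116), PFKL and PDK1 when any DU145 library or any PC3 TRIB1 library was left out (up to 0.218 and 0.108), PFKFB4 without any library but the first DU145 TRIB1 library (up to 0.167), and ENO2 without any but the second DU145 control (up to 0.128).

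**Figure D1:**
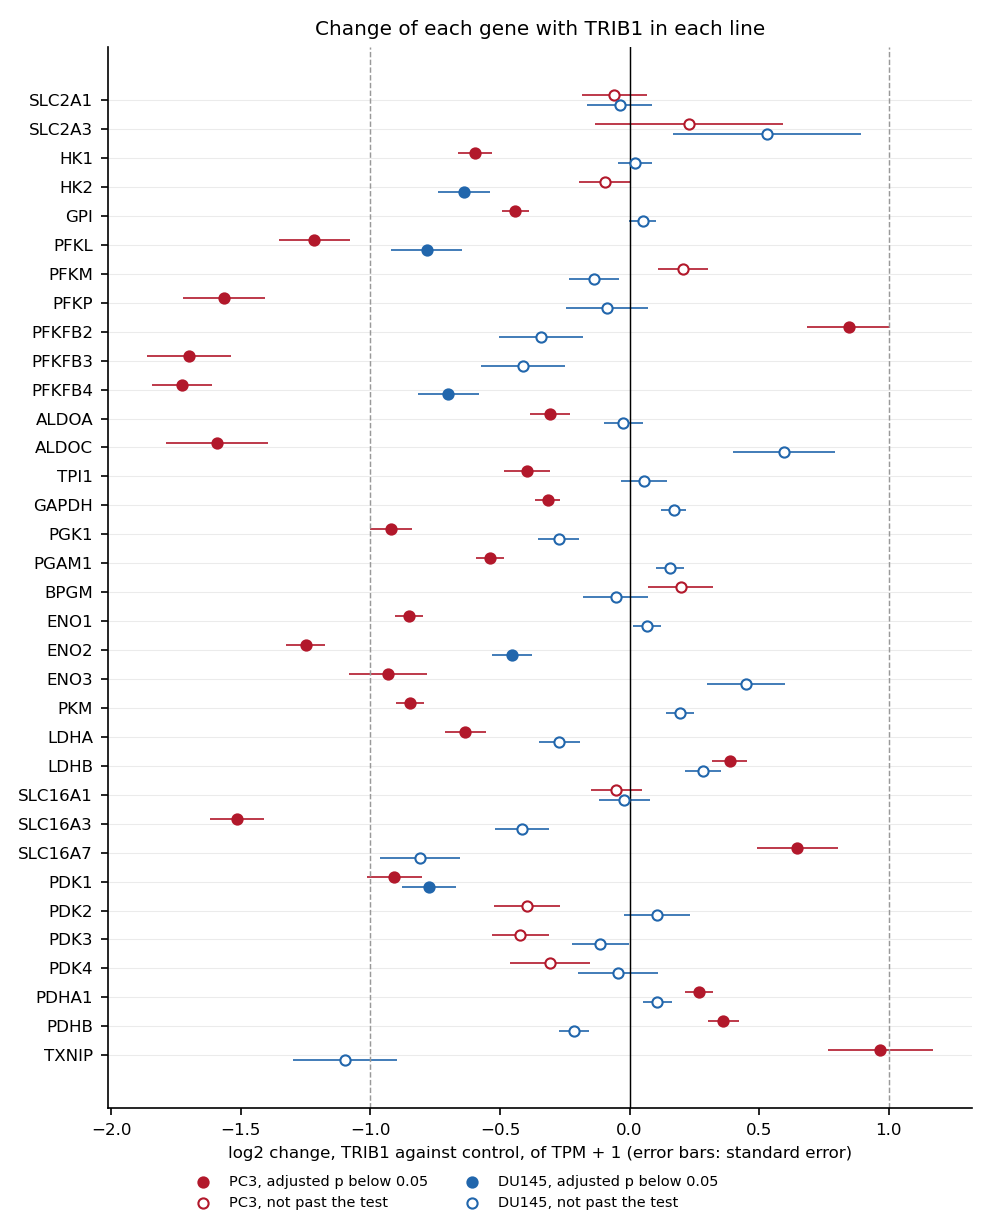
Log2 change of TPM + 1, TRIB1 against control, for each of the 34 genes from glucose uptake at the top to TXNIP at the bottom. Red points are PC3 and blue points DU145, filled where the adjusted p is below 0.05, with standard errors as bars and dashed lines at a log2 change of 1 in either direction. Most PC3 points lie left of 0, down to -1.73 for PFKFB4, while most DU145 points lie between -0.81 and 0.60 and SLC2A1 and SLC16A1 stay near 0 in both lines.

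Uptake and phosphorylation of glucose. SLC2A1 encodes GLUT1, the main glucose transporter of most proliferating cells, and it did not pass in either line. It stood at 216 and 198 TPM in the PC3 TRIB1 libraries against 188 and 246 TPM in the PC3 controls, and at 148 and 154 TPM in the DU145 TRIB1 libraries against 156 and 154 TPM in the DU145 controls. The PC3 groups overlapped, the log2 change was -0.06 (SE 0.12, adjusted p = 0.83) in PC3 and -0.04 (SE 0.12, adjusted p = 0.944) in DU145. SLC2A3, which encodes the high-affinity transporter GLUT3, was close to the floor of the table. It had 1.52 and 0.827 TPM in the PC3 TRIB1 libraries against 1.60 and 0.285 TPM in the PC3 controls, and 3.11 and 2.99 TPM in the DU145 TRIB1 libraries against 1.68 and 1.93 TPM in the DU145 controls. Neither change passed (adjusted p = 0.746 in PC3 and 0.506 in DU145), and pseudogene copies of SLC2A3 hold between 3.07% and 32.8% of its own TPM, so its low values are uncertain.

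Of the hexokinases, HK1 fell in PC3 and HK2 in DU145. HK1, the widely expressed hexokinase, had 114 and 107 TPM in PC3 TRIB1 libraries against 165 and 169 TPM in PC3 controls, a fall of every TRIB1 library below both controls (log2 change -0.60, SE 0.07, adjusted p = 0.00456). In DU145 it had 71.7 and 65.1 TPM with TRIB1 against 67.0 and 67.7 TPM in controls, the groups overlapped, and the difference between the lines passed (-0.62, SE 0.09, adjusted p = 0.0178). HK2, the isoform that many tumours induce, had 41.3 and 39.2 TPM in PC3 TRIB1 libraries against 44.0 and 42.1 TPM in PC3 controls, which did not pass (log2 change -0.09, SE 0.10, adjusted p = 0.594). In DU145, where HK2 is scarce, it fell to 2.54 and 2.20 TPM with TRIB1 against 4.01 and 4.50 TPM in controls (log2 change -0.64, SE 0.10, adjusted p = 0.0373). The HK2 changes in the 2 lines did not differ past the test (0.54, SE 0.14, adjusted p = 0.0702). GPI, which turns glucose phosphate into fructose phosphate, fell in PC3 to 292 and 316 TPM with TRIB1 against 409 and 416 TPM in controls (log2 change -0.44, SE 0.05, adjusted p = 0.00545). In DU145 GPI had 337 and 329 TPM with TRIB1 against 319.8 and 323 TPM in controls and did not pass (adjusted p = 0.677).

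Phosphofructokinase and its regulators. Phosphofructokinase, the committed step, has subunits from PFKL, PFKM and PFKP, and the PFKFB enzymes make and break the sugar bisphosphate that activates it. In PC3 PFKL, PFKP, PFKFB3 and PFKFB4 fell, PFKFB2 rose and PFKM did not pass. In PC3 the 3 subunit transcripts summed to 251 and 247 TPM with TRIB1 against 449 and 599 TPM in controls, 52.5% lower. The 3 PFKFB transcripts summed to 64.3 and 59.3 TPM with TRIB1 against 120.5 and 137 TPM in controls, 52.1% lower. In DU145 the same sums were 17.5% and 28.0% lower, at 438 and 410.3 TPM with TRIB1 against 518 and 511 TPM in controls for the subunits, and at 54.5 and 49.1 TPM against 70.2 and 73.8 TPM for the PFKFB enzymes.

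PFKP, the platelet-type subunit, had 68.9 and 72.5 TPM in PC3 TRIB1 libraries against 177 and 252 TPM in PC3 controls (log2 change -1.56, SE 0.16, adjusted p = 0.00364). The 2 PC3 controls lay far apart, and the TRIB1 libraries lay below both. In DU145 PFKP had 268 and 252 TPM with TRIB1 against 270.3 and 282 TPM in controls (log2 change -0.09, SE 0.16, adjusted p = 0.852), and the difference between the lines passed (-1.48, SE 0.22, adjusted p = 0.0179). PFKL, the liver-type subunit, fell in both lines. It had 102 and 105 TPM in PC3 TRIB1 libraries against 208 and 281 TPM in PC3 controls (log2 change -1.22, SE 0.14, adjusted p = 0.00474), and 93.6 and 89.6 TPM in DU145 TRIB1 libraries against 164 and 153 TPM in DU145 controls (log2 change -0.78, SE 0.14, adjusted p = 0.0494). The PFKL groups did not overlap in either line, and the test of the changes against each other was not passed (-0.43, SE 0.19, adjusted p = 0.228). PFKM, the muscle-type subunit, lay between 63.4 and 83.5 TPM in all 8 libraries and passed in neither line. It shares 628 exon bases with SENP1 on the opposite strand, a gene at up to 29.8% of the PFKM TPM, so its values are uncertain. The shares of the subunits differed as well. PFKP held 27.5% and 29.4% of the summed subunit TPM in PC3 TRIB1 libraries against 39.4% and 42.1% in PC3 controls, but 61.1% and 61.4% in DU145 TRIB1 libraries against 52.2% and 55.1% in DU145 controls. No test was made of shares.

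PFKFB4, a PFKFB enzyme that hypoxia is known to induce, had the largest fall of the 34 genes in PC3, with 17.9 and 15.9 TPM in PC3 TRIB1 libraries against 57.0 and 59.4 TPM in PC3 controls (log2 change -1.73, SE 0.12, adjusted p = 0.00129). In DU145 it stood at 9.71 and 7.82 TPM with TRIB1 against 14.6 and 14.9 TPM in controls (log2 change -0.70, SE 0.12, adjusted p = 0.0442), and neither line's groups overlapped. PFKFB3, which favours synthesis of the activator, had 18.4 and 14.2 TPM in PC3 TRIB1 libraries against 48.7 and 61.8 TPM in PC3 controls (log2 change -1.70, SE 0.16, adjusted p = 0.00311). In DU145 PFKFB3 had 33.6 and 29.6 TPM with TRIB1 against 43.2 and 41.3 TPM in controls and did not pass (log2 change -0.41, SE 0.16, adjusted p = 0.268). PFKFB2, the heart-type enzyme, went the other way in PC3. It had 28.0 and 29.1 TPM in PC3 TRIB1 libraries against 14.7 and 16.2 TPM in PC3 controls (log2 change 0.85, SE 0.16, adjusted p = 0.021), and 11.2 and 11.7 TPM in DU145 TRIB1 libraries against 12.3 and 17.6 TPM in DU145 controls (log2 change -0.34, SE 0.16, adjusted p = 0.352). The PC3 rise did not pass without any 1 of the 4 PC3 libraries or the first DU145 TRIB1 library (adjusted p up to 0.113). PFKFB2 held 43.6% and 49.1% of the summed PFKFB TPM in PC3 TRIB1 libraries against 12.2% and 11.8% in PC3 controls. Its gene overlaps YOD1 on the opposite strand over 315 exon bases, and YOD1 stood at 16.1 and 14.4 TPM in PC3 TRIB1 libraries against 14.4 and 11.8 TPM in PC3 controls. The strand setting of the counting is not given in the sources used here, so reads of the shared bases cannot be told apart.

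**Figure D2:**
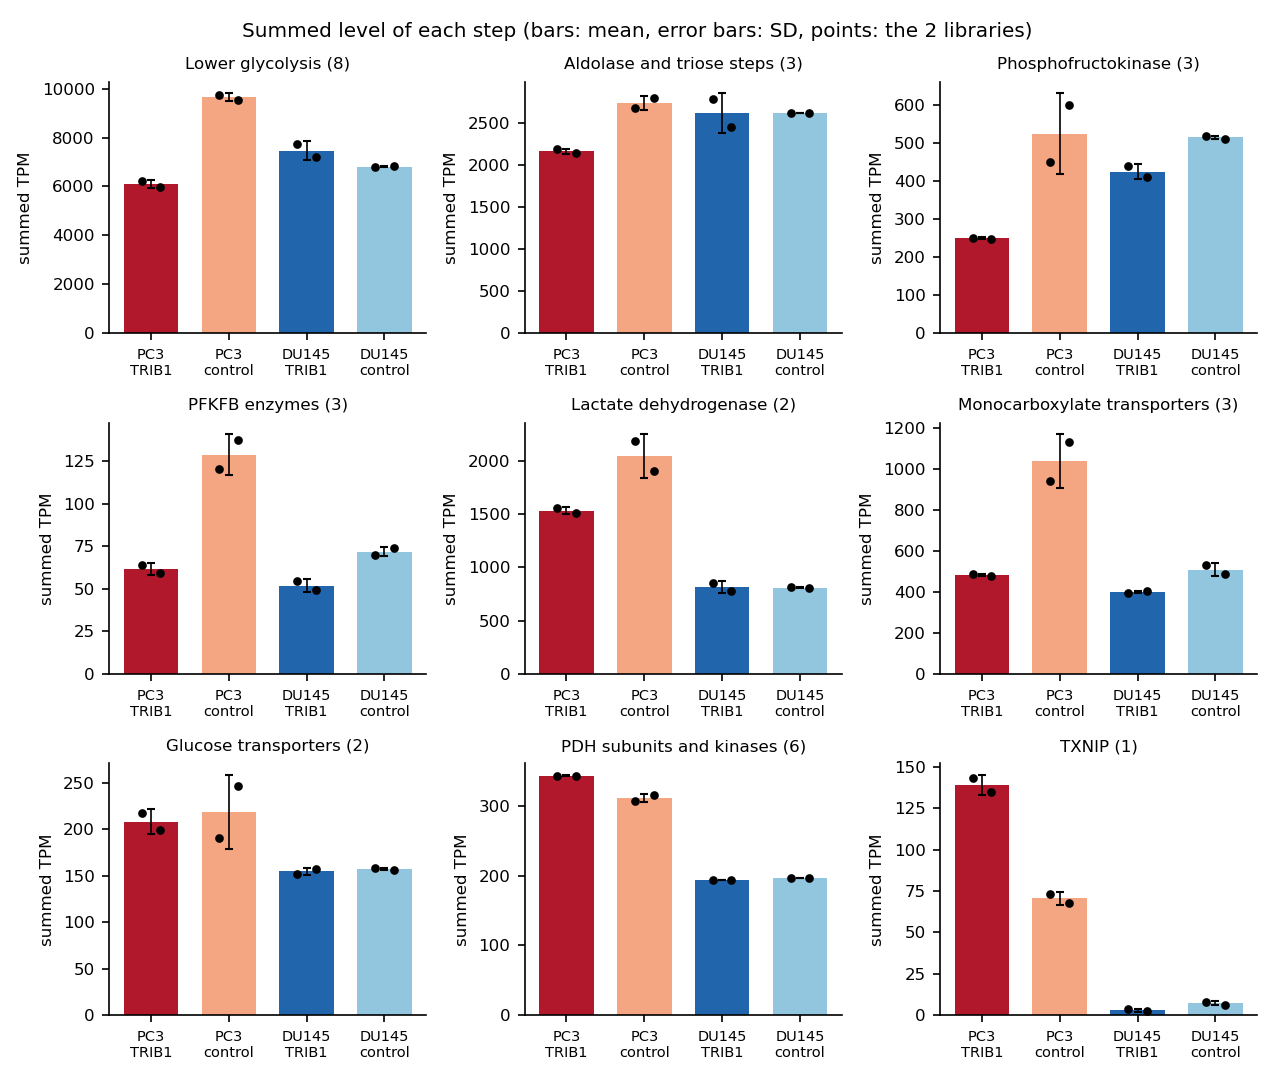
Summed TPM of the genes of each step in the 4 groups, PC3 TRIB1, PC3 control, DU145 TRIB1 and DU145 control from left to right. Bars are means of 2 libraries, error bars the SD, points the libraries, and the number of genes summed is in each panel title. The phosphofructokinase, PFKFB and monocarboxylate transporter sums of PC3 TRIB1 libraries lie at 249 ± 3.04, 61.8 ± 3.57 and 483 ± 4.53 TPM, below both PC3 controls.

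From aldolase to pyruvate. The abundant enzymes of the middle and lower chain fell in PC3 by smaller log2 changes, and in DU145 ENO2 was the only gene of this stretch to pass. ALDOA, TPI1 and GAPDH, which split the sugar and begin the energy-yielding steps, had log2 changes of -0.31, -0.40 and -0.32 in PC3 (adjusted p = 0.044, 0.0331 and 0.0113). GAPDH, the most abundant of the 34 transcripts in both controls, had 2415 and 2284 TPM in PC3 TRIB1 libraries against 2908 and 2939 TPM in PC3 controls. In DU145 GAPDH had 3487 and 3276 TPM with TRIB1 against 3002 and 3007 TPM in controls (log2 change 0.17, SE 0.05, adjusted p = 0.155). The 3 small falls were fragile. ALDOA and TPI1 did not pass when any 1 PC3 library or DU145 control was left out (adjusted p up to 0.214 and 0.155), nor GAPDH when 1 DU145 control, 1 PC3 TRIB1 library or the second PC3 control was (up to 0.103).

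ALDOC, the brain-type aldolase, is a minor form beside ALDOA and moved far more. It had 8.04 and 11.6 TPM in PC3 TRIB1 libraries against 28.7 and 33.7 TPM in PC3 controls (log2 change -1.59, SE 0.20, adjusted p = 0.00596). In DU145 it had 9.69 and 11.9 TPM with TRIB1 against 6.28 and 7.26 TPM in controls (log2 change 0.60, SE 0.20, adjusted p = 0.196). The DU145 libraries with TRIB1 lay above both controls, the opposite side from PC3, and the difference between the lines, -2.19 (SE 0.28, adjusted p = 0.0112), is the largest in size among the 34 genes.

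PGK1 and PKM make the ATP of glycolysis, PGAM1 and the enolases carry the steps between them, and BPGM diverts an intermediate. PGK1 had 813 and 785 TPM in PC3 TRIB1 libraries against 1633 and 1403 TPM in PC3 controls (log2 change -0.92, SE 0.08, adjusted p = 0.00254), and 287 and 289 TPM in DU145 TRIB1 libraries against 360.1 and 336 TPM in DU145 controls (log2 change -0.27, SE 0.08, adjusted p = 0.159). The TRIB1 libraries lay below both controls in each line, and the fall passed in PC3 alone, with a difference between the lines of -0.65 (SE 0.11, adjusted p = 0.0253). PGAM1 had 343 and 329 TPM in PC3 TRIB1 libraries against 503 and 474 TPM in PC3 controls (log2 change -0.54, SE 0.05, adjusted p = 0.00343), and 568 and 537 TPM in DU145 TRIB1 libraries against 496 and 495 TPM in DU145 controls (log2 change 0.16, SE 0.05, adjusted p = 0.209). BPGM lay between 12.9 and 19.9 TPM in all libraries and passed in neither line.

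All 3 enolases fell in PC3, and in DU145 ENO2 alone fell. ENO1, the common enolase, had 1471 and 1454 TPM in PC3 TRIB1 libraries against 2657 and 2618 TPM in PC3 controls (log2 change -0.85, SE 0.05, adjusted p = 0.00111), and 1855 and 1683 TPM in DU145 TRIB1 libraries against 1671 and 1698 TPM in DU145 controls (log2 change 0.07, SE 0.05, adjusted p = 0.568). The replicates agreed closely in PC3 and the groups overlapped in DU145. ENO2, the neuronal form, had 40.7 and 38.8 TPM in PC3 TRIB1 libraries against 98.5 and 93.4 TPM in PC3 controls (log2 change -1.25, SE 0.08, adjusted p = 0.00105), the smallest adjusted p of the 34 genes. ENO2 fell in DU145 as well, at 31.9 and 31.0 TPM with TRIB1 against 46.0 and 41.1 TPM in controls (log2 change -0.45, SE 0.08, adjusted p = 0.0455), by less than in PC3 (difference -0.80, SE 0.11, adjusted p = 0.0133). ENO3, the muscle form, had 40.0 and 37.8 TPM in PC3 TRIB1 libraries against 64.5 and 87.3 TPM in PC3 controls (log2 change -0.93, SE 0.15, adjusted p = 0.0125), a fall that did not pass with either TRIB1 library of PC3 left out (adjusted p up to 0.0855). In DU145 ENO3 lay above both controls, at 128 and 111 TPM with TRIB1 against 85.7 and 88.8 TPM, without passing (log2 change 0.45, SE 0.15, adjusted p = 0.201). ENO3 shares 111 exon bases with PFN1 on the opposite strand, an actin-binding gene at 1129 to 2083 TPM, so the ENO3 values are uncertain. PFN1 did not pass in PC3 (log2 change -0.24, adjusted p = 0.0525) or DU145 (-0.11, adjusted p = 0.447).

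PKM, which encodes the pyruvate kinase of proliferating cells and makes the last step of the chain, had 1072 and 1032 TPM in PC3 TRIB1 libraries against 1883 and 1906 TPM in PC3 controls (log2 change -0.85, SE 0.05, adjusted p = 0.00111). In DU145 PKM had 1354 and 1246 TPM with TRIB1 against 1112 and 1157 TPM in controls (log2 change 0.20, SE 0.05, adjusted p = 0.145). The TRIB1 libraries lay below both controls in PC3 and above both in DU145, and the difference of -1.04 (SE 0.08, adjusted p = 0.00317) has the smallest adjusted p of the 34 genes. The table gives 1 value per gene, so the splice forms of PKM were not analysed here. Summed, the 8 transcripts from GAPDH to PKM held 6211 and 5976 TPM in PC3 TRIB1 libraries against 9761 and 9533 TPM in PC3 controls, 36.8% lower, and 7731 and 7189 TPM in DU145 TRIB1 libraries against 6792 and 6842 TPM in DU145 controls, 9.44% higher.

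**Figure D3:**
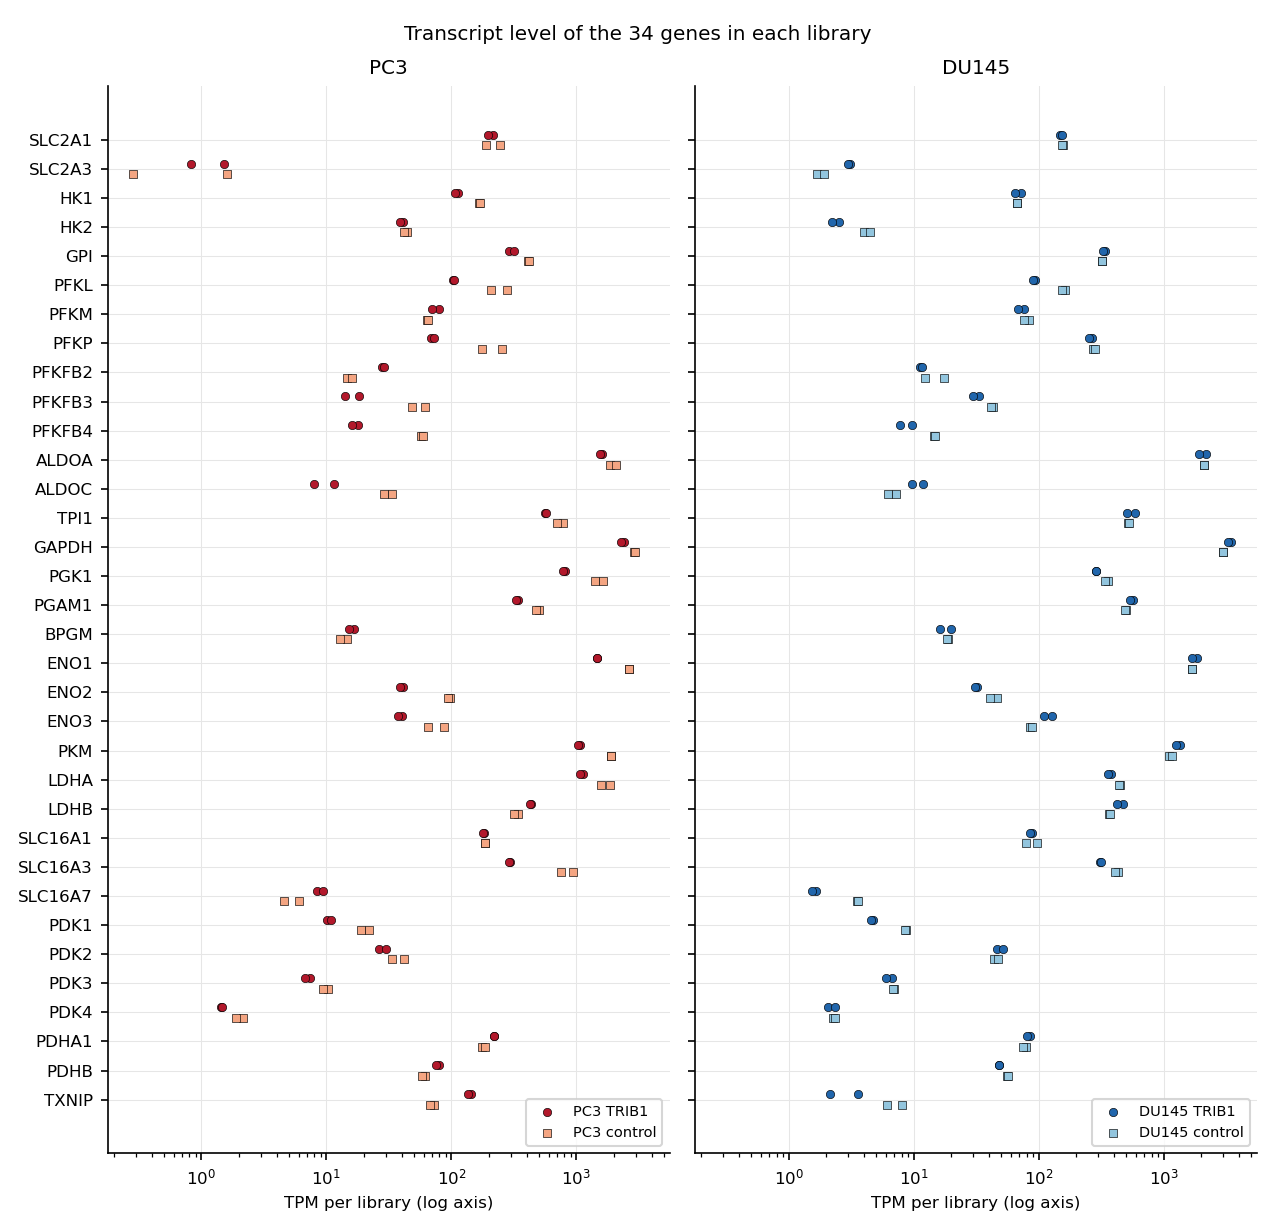
TPM of each of the 34 genes in each library on a log axis, PC3 on the left and DU145 on the right. Circles are TRIB1 libraries and squares control libraries. In PC3 the circles of ENO2 (40.7 and 38.8 TPM) lie well left of the squares (98.5 and 93.4 TPM), while circles and squares of SLC2A1 and SLC16A1 lie on or beside each other.

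The promoter sequences of the genes with the smallest adjusted p in PC3 are shown because hypoxia and nutrient factors are known to act on glycolytic genes through short DNA words. The windows come from RefSeq on GRCh38.p14 and run from 250 bases before to 50 bases after an annotated start, 300 bases in all, and 31 of the 34 genes have at least 1. SLC2A3, PFKFB2 and SLC16A1 have none in the table used. Each is printed 5′ to 3′ along the gene's own strand, with capitals marking the word ACGTG, the core of the hypoxia response element, on either strand (CACGT on the strand shown).
ENO2 (chr12:6914330-6914629, forward strand): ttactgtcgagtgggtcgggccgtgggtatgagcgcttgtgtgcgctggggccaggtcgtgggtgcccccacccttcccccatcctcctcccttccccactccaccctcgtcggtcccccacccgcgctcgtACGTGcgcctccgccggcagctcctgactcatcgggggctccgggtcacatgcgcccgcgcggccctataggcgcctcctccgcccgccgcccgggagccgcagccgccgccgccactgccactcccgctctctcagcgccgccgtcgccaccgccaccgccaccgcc
ENO1 (chr1:8878637-8878936, reverse strand): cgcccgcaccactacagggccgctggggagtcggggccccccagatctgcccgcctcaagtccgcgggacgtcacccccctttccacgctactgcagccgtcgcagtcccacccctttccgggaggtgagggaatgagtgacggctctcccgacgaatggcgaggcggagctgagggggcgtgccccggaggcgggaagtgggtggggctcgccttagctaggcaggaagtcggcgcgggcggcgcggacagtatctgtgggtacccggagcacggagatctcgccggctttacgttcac
PKM (chr15:72231141-72231440, reverse strand): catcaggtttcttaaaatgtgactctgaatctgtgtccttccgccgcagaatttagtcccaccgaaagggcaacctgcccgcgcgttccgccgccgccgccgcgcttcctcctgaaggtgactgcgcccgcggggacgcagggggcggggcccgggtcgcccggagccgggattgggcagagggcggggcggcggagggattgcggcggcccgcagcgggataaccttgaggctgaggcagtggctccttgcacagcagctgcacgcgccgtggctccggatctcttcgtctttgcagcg
PFKFB4 (chr3:48556754-48557053, reverse strand): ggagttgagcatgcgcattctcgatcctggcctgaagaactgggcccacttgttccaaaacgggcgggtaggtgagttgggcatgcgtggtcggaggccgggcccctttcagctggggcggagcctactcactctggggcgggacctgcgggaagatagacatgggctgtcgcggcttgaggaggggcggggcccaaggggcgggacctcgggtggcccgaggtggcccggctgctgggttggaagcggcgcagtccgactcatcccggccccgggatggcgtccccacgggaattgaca
The ENO2 window holds 1 such core, and the windows of ENO1, PKM and PFKFB4 hold 0. PGK1 and LDHA, chosen after their values and motifs were seen, hold more.
PGK1 (chrX:78103998-78104297, forward strand): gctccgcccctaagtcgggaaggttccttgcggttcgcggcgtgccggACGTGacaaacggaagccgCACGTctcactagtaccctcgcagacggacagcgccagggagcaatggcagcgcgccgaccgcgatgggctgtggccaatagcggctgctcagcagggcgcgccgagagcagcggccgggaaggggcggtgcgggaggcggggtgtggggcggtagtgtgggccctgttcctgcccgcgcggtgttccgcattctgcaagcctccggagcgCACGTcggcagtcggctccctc
LDHA, first window (chr11:18394313-18394612, forward strand): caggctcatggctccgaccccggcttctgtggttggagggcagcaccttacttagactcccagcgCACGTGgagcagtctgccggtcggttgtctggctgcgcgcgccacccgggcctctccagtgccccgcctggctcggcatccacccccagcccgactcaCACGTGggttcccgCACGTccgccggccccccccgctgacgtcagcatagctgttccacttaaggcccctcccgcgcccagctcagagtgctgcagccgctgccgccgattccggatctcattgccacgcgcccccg
PGK1 has 3 cores. The first LDHA window has 5, since the E-box CACGTG, a word bound by MYC, MAX and related factors, occurs 2 times there and holds the core on both strands. A second LDHA window has 0. At least 1 core was found in 19 of the 31 genes with a window (61.3%), against 24.9% of the 27305 genes in the table, and CACGTG in 8 of the 31 (25.8%), against 8.77%. Genes with several windows had more chances, and per window the core was in 23 of 62 windows of these genes against 21.4% of all 35116. The background is every gene with a window, and it was not matched to the described genes for expression or base content. These are counts of letters, not of bound sites, and no match in a window says nothing about a factor.

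Lactate dehydrogenase. LDHA encodes the subunit that is abundant in glycolytic tissue and LDHB the subunit of heart, and in PC3 the first fell while the second rose. LDHA had 1121 and 1079 TPM in PC3 TRIB1 libraries against 1846 and 1581 TPM in PC3 controls (log2 change -0.63, SE 0.08, adjusted p = 0.00621), which did not pass without the second PC3 TRIB1 library (adjusted p = 0.0534). In DU145 LDHA had 376 and 356 TPM with TRIB1 against 444 and 439 TPM in controls (log2 change -0.27, SE 0.08, adjusted p = 0.16). The TRIB1 libraries lay below both controls in both lines, and only the PC3 fall passed, while the difference did not (-0.36, SE 0.11, adjusted p = 0.108). LDHB rose in PC3 to 434 and 428 TPM with TRIB1, against 340.2 and 319 TPM in controls (log2 change 0.39, SE 0.07, adjusted p = 0.0166). In DU145 LDHB had 476 and 422 TPM with TRIB1 against 367 and 369 TPM in controls and did not pass (log2 change 0.28, SE 0.07, adjusted p = 0.105). The LDHB rise in PC3 did not pass when 1 DU145 control, 1 PC3 TRIB1 library or the second PC3 control was left out (adjusted p up to 0.0941). The ratio of LDHA to LDHB, which was not tested, was 2.59 and 2.52 in PC3 TRIB1 libraries against 5.43 and 4.95 in PC3 controls, and 0.792 and 0.843 in DU145 TRIB1 libraries against 1.21 and 1.19 in DU145 controls. The ratio was thus lower in both TRIB1 libraries than in both controls in each line, and in the DU145 TRIB1 libraries LDHB was the more abundant of the pair.

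Lactate and pyruvate transport. SLC16A3 encodes MCT4, the exporter of strongly glycolytic cells, and it fell in PC3. It had 294 and 292 TPM in PC3 TRIB1 libraries against 751 and 938 TPM in PC3 controls (log2 change -1.51, SE 0.10, adjusted p = 0.00134). In DU145 SLC16A3 had 307 and 318 TPM with TRIB1 against 429.9 and 404 TPM in controls (log2 change -0.42, SE 0.10, adjusted p = 0.116), below both controls without passing. The 4 TRIB1 libraries of both lines thus lay within 292 to 318 TPM, while the controls of the lines lay far apart. SLC16A3 overlaps CSNK1D, a kinase gene at 174 to 252 TPM, over 482 exon bases on the opposite strand. CSNK1D reached 67.7% of the SLC16A3 TPM within a library, so the SLC16A3 values are uncertain. CSNK1D itself passed in neither line (log2 change -0.21, adjusted p = 0.216 in PC3 and -0.17, adjusted p = 0.443 in DU145).

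SLC16A1 encodes MCT1, which carries lactate both ways, and passed in neither line. It had 183 and 178 TPM in PC3 TRIB1 libraries against 187 and 188 TPM in PC3 controls (log2 change -0.05, SE 0.10, adjusted p = 0.80), and 88.0 and 85.1 TPM in DU145 TRIB1 libraries against 97.5 and 79.0 TPM in DU145 controls (log2 change -0.02, SE 0.10, adjusted p = 0.979). SLC16A7 encodes MCT2, a high-affinity pyruvate and lactate transporter, and was the scarce member of the group. It had 8.35 and 9.33 TPM in PC3 TRIB1 libraries against 6.04 and 4.60 TPM in PC3 controls (log2 change 0.65, SE 0.16, adjusted p = 0.0414), but 1.66 and 1.52 TPM in DU145 TRIB1 libraries against 3.51 and 3.56 TPM in DU145 controls (log2 change -0.81, SE 0.16, adjusted p = 0.0633). Its PC3 rise did not pass without any 1 library other than the first PC3 control (adjusted p up to 0.171). The 2 lines lay on opposite sides of their controls, and the difference passed (1.46, SE 0.22, adjusted p = 0.018). SLC16A3 held 60.6% and 60.9% of the summed transporter TPM in PC3 TRIB1 libraries against 79.5% and 83.0% in PC3 controls, and SLC16A1 held 37.7% and 37.2% against 19.8% and 16.6%. BSG, the chaperone that brings MCT1 and MCT4 to the membrane, passed in neither line (log2 change -0.17, adjusted p = 0.192 in PC3 and 0.14, adjusted p = 0.432 in DU145).

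**Figure D4:**
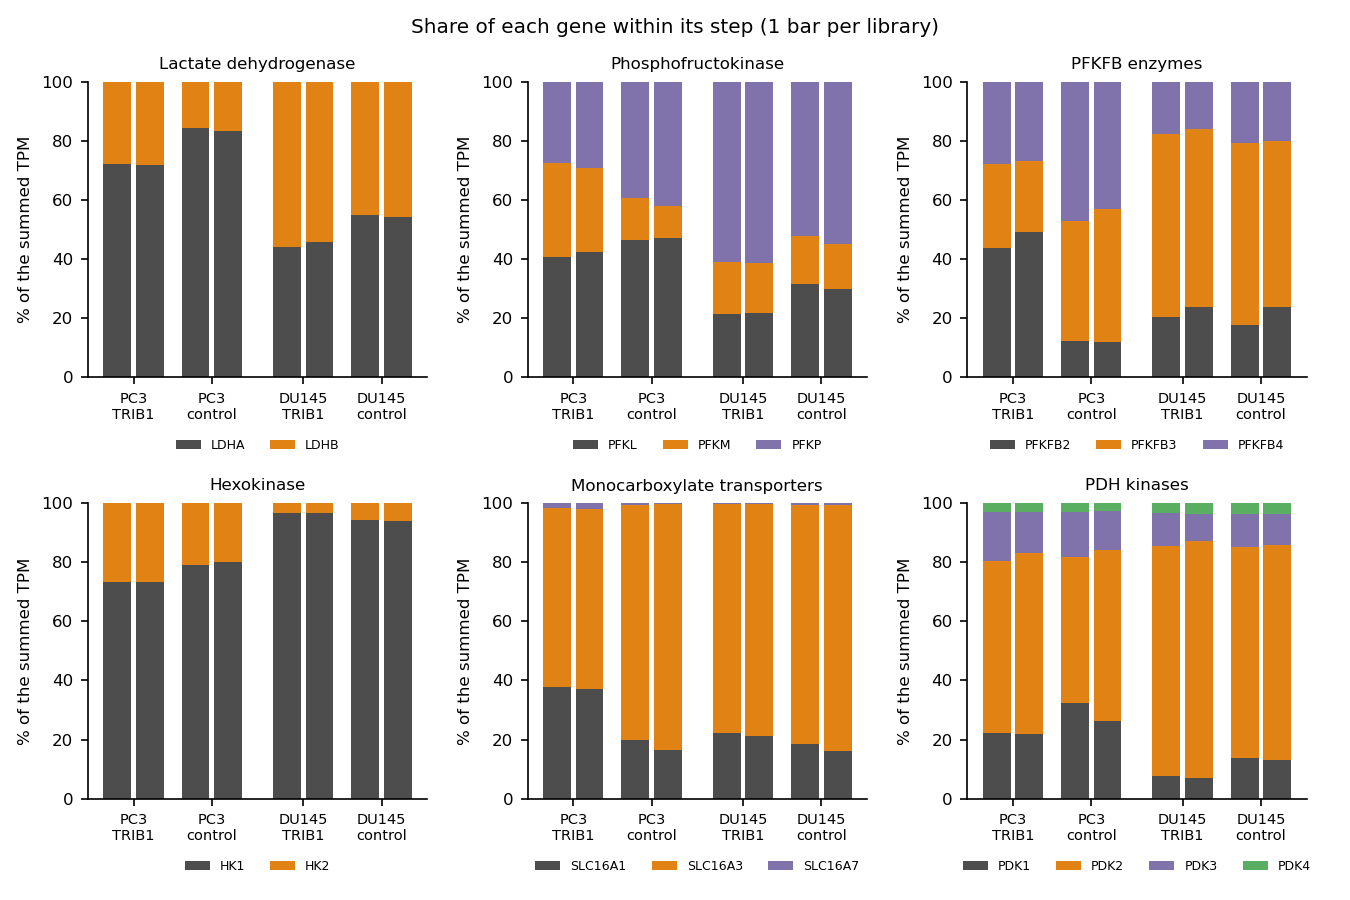
Share of each gene in the summed TPM of its step, 1 bar per library, with PC3 TRIB1, PC3 control, DU145 TRIB1 and DU145 control from left to right in each panel. LDHA holds 72.1% and 71.6% of the LDHA and LDHB sum in PC3 TRIB1 libraries against 84.4% and 83.2% in PC3 controls, and 44.2% and 45.8% in DU145 TRIB1 libraries against 54.8% and 54.3% in DU145 controls.

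Pyruvate dehydrogenase and its kinases. PDK1, a kinase that hypoxia is known to induce, fell in both lines. It had 10.1 and 10.8 TPM in PC3 TRIB1 libraries against 22.0 and 19.1 TPM in PC3 controls (log2 change -0.91, SE 0.11, adjusted p = 0.00515), and 4.69 and 4.54 TPM in DU145 TRIB1 libraries against 8.64 and 8.55 TPM in DU145 controls (log2 change -0.77, SE 0.11, adjusted p = 0.0272). The PDK1 groups did not overlap in either line, and the changes differed by -0.13 (SE 0.15, adjusted p = 0.616). PDK1 overlaps AC078883.1, listed at 2.00 to 14.6 TPM, over 445 exon bases on the opposite strand. AC078883.1 reached 76.4% of the PDK1 TPM within a library, so the PDK1 values are uncertain. The other 3 kinases passed in neither line. PDK4, the kinase of fasting tissue, had 1.43 and 1.46 TPM in PC3 TRIB1 libraries against 2.16 and 1.91 TPM in PC3 controls, and 2.05 and 2.34 TPM in DU145 TRIB1 libraries against 2.25 and 2.34 TPM in DU145 controls. PDK2, at 26.6 to 52.2 TPM in the 8 libraries, had a log2 change of -0.40 in PC3 (adjusted p = 0.0914), and PDK3, at 5.99 to 10.3 TPM, had -0.42 (adjusted p = 0.0524). PDK2 shares 2113 exon bases with SAMD14 on the opposite strand, a gene at up to 25.4% of the PDK2 TPM, so the PDK2 values are uncertain.

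Both subunits of the first enzyme of the complex rose in PC3. PDHB, the beta subunit, had 80.0 and 75.3 TPM in PC3 TRIB1 libraries against 61.8 and 58.6 TPM in PC3 controls (log2 change 0.36, SE 0.06, adjusted p = 0.0132), and 48.4 and 48.0 TPM in DU145 TRIB1 libraries against 55.7 and 56.4 TPM in DU145 controls (log2 change -0.21, SE 0.06, adjusted p = 0.142). The 2 lines lay on opposite sides of their controls and the difference passed (0.58, SE 0.08, adjusted p = 0.0164). PDHA1, the alpha subunit, averaged 218 ± 0.252 TPM in PC3 TRIB1 libraries and 181 ± 5.46 TPM in PC3 controls (SD, n = 2 each; limma log2 change 0.27, adjusted p = 0.0259). The PDHB rise did not pass without the first PC3 TRIB1 library (adjusted p = 0.0522), nor that of PDHA1 without either TRIB1 library of PC3 or its first control (adjusted p up to 0.0961). The sum of PDHA1, PDHB and the 4 kinases was 344 and 343 TPM in PC3 TRIB1 libraries against 307 and 316 TPM in PC3 controls, 10.2% higher. It was the only step sum over more than 1 gene that was higher in PC3 TRIB1 libraries. This sum joins subunits that rose with 4 kinases whose PC3 log2 changes were negative, from -0.31 (PDK4) to -0.91 (PDK1).

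TXNIP. TXNIP encodes an arrestin-like protein that pulls glucose transporters from the surface, and its transcription is known to follow glucose supply. It had 143 and 135 TPM in PC3 TRIB1 libraries against 73.4 and 67.9 TPM in PC3 controls (log2 change 0.97, SE 0.20, adjusted p = 0.0271). In DU145, where it is scarce, it had 3.56 and 2.13 TPM with TRIB1 against 8.12 and 6.17 TPM in controls (log2 change -1.10, SE 0.20, adjusted p = 0.0565). The TRIB1 libraries lay above both controls in PC3 and below both in DU145, the DU145 change did not pass, and the difference between the lines did (2.07, SE 0.29, adjusted p = 0.0141). The PC3 rise did not pass when any 1 PC3 library or DU145 control was left out (adjusted p up to 0.14). ARRDC4, the closest relative of TXNIP and known to share its response to glucose, had 11.9 and 11.1 TPM in PC3 TRIB1 libraries against 4.45 and 3.88 TPM in PC3 controls (log2 change 1.28, SE 0.16, adjusted p = 0.00642), while all 4 DU145 libraries lay between 0.400 and 0.612 TPM. MLXIPL, which encodes the glucose-sensing factor ChREBP, rose in PC3 to 7.39 and 9.25 TPM with TRIB1, against 3.96 and 4.63 TPM in controls (log2 change 0.81, SE 0.12, adjusted p = 0.0106). In DU145 MLXIPL had 37.4 and 36.6 TPM with TRIB1 against 42.8 and 44.0 TPM in controls and did not pass (adjusted p = 0.431). The first TXNIP window holds a pair of the word CACGAG 5 bases apart, which lies in the known carbohydrate response element of this promoter, and the capitals mark the pair and the bases between. The pair was looked for because of that knowledge. Whether MLXIPL or this pair has a part in the TXNIP and ARRDC4 changes was not tested.
TXNIP, first window (chr1:145996530-145996829, reverse strand): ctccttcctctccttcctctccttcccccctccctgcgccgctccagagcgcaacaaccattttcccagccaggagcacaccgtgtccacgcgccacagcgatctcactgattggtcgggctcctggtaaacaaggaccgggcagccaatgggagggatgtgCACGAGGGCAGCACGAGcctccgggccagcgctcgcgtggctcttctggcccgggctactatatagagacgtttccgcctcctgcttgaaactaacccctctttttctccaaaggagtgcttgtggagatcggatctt
The same pair, on either strand, is in 2 of the 27305 genes with a window and in 1 of the 31 described here. A second TXNIP window holds 1 ACGTG core and no such pair.

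The difference between the lines. The change in PC3 minus the change in DU145 passed for 18 of the 34 genes, 14 of them lower, where 4.01% of all genes were lower, and 4 higher, where 5.36% were. The 14 were PKM, ENO1, PGAM1, ALDOC, SLC16A3, ENO2, GAPDH, GPI, HK1, PFKP, ENO3, PFKFB4, PGK1 and PFKFB3, and the 4 were TXNIP, PDHB, SLC16A7 and PFKFB2. With a difference over 1 in size as well, 7 were lower (PFKP, PFKFB3, PFKFB4, ALDOC, ENO3, PKM and SLC16A3), against 2.11% of all genes, and 3 higher (PFKFB2, SLC16A7 and TXNIP), against 3.01%. The median difference was -0.40 over the 34 genes and 0.025 over all genes. PKM, ENO1, PGAM1, ENO2 and PDHB passed without any 1 of the 8 libraries, and the other 13 did not. None of the 18 passed under every alternative, and PDHB did not pass without a mean-variance trend (adjusted p = 0.0558). ALDOC was lost without the first DU145 control (adjusted p = 0.053) and GPI without either DU145 control. HK1 was lost with 1 DU145 control or the second PC3 TRIB1 library left out, and GAPDH and SLC16A3 with any 1 of the DU145 controls or PC3 TRIB1 libraries left out. PFKP and PGK1 were lost when any DU145 library or any PC3 TRIB1 library was left out, and PFKFB2 when any PC3 library or any DU145 TRIB1 library was. PFKFB3 was lost without any 1 DU145 library, the second PC3 control or the second PC3 TRIB1 library. PFKFB4, ENO3 and SLC16A7 were lost with any 1 of the DU145 controls or PC3 TRIB1 libraries left out. PFKFB4 was also lost without the second PC3 control, ENO3 without the first DU145 TRIB1 library and SLC16A7 without the second. TXNIP was lost without the first DU145 control, the second PC3 control or 1 PC3 TRIB1 library of either number. The adjusted p of these 13 reached at most 0.111. The 2 changes share no library, but each rests on 2 against 2.

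The controls of the lines. With the empty lentivirus, PC3 carried more glycolytic transcript than DU145. The 34 genes summed to 17337 and 17363 TPM in PC3 controls against 12098 and 12102 TPM in DU145 controls. Of the 34, 19 were higher in PC3 controls at an adjusted p below 0.05, against 18.6% of all genes, and 2 were lower (PFKM and BPGM), against 28.4%. By the stricter rule 12 were called higher, against 9.78%, and 0 lower by limma, against 15.7%, and 0 lower at an unadjusted p below 0.05 with the same fold. Both PC3 controls lay above both DU145 controls in 22 of the 34 genes, against 28.2% of all genes, and below both in 9, against 42.4%. The median log2 difference was 0.47 over the 34 genes and -0.18 over all genes, and scaling by the median of ratios moved the all-gene median to 0 and that of the 34 genes to 0.68. Differences close to 0 turned their sign with that scaling. The largest called differences were TXNIP (log2 3.15, SE 0.20, adjusted p = 9.69e-05), HK2 (3.07, SE 0.10, adjusted p = 1.03e-05), PGK1 (2.12, SE 0.08, adjusted p = 1.56e-05), ALDOC (2.05, SE 0.20, adjusted p = 0.000426), LDHA (1.95, SE 0.08, adjusted p = 2.03e-05) and PFKFB4 (1.91, SE 0.12, adjusted p = 8.02e-05). Of the 19, 16 passed under every alternative and without any 1 library. SLC2A1 (log2 0.47) did not pass when any DU145 library or any PC3 TRIB1 library was left out (adjusted p up to 0.115), PFKL (0.61) without either DU145 control (up to 0.0862), and PDK3 (0.46) without either DU145 control or the first PC3 control (up to 0.0674). PFKM and BPGM did not pass without either control library of either line, among others (up to 0.187 and 0.152). This comparison shares its control libraries with those of TRIB1, so the 2 sets of values are given side by side and no relation between them was computed.

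Genes of the neighbouring pathways. Lists of 90 further genes cover other glycolytic and transport genes, entry of pyruvate into mitochondria, the pentose phosphate pathway, gluconeogenesis and glycogen, the tricarboxylic acid cycle, shuttles of reducing power, and transcription factors with the control of HIF, and 82 of them were tested. In PC3 17 of the 82 rose (20.7%) and 12 fell (14.6%), against 7.67% and 9.33% of all genes. In DU145 1 rose (1.22%) and 3 fell (3.66%), against 0.712% and 2.01% of all genes. Of the 17 genes of the tricarboxylic acid cycle 5 rose in PC3, 29.4% against 7.67% of all genes, and 0 fell by limma, against 9.33%, while 6 were higher and 2 lower at an unadjusted p below 0.05. SDHD, a succinate dehydrogenase subunit, had 121 and 119 TPM in PC3 TRIB1 libraries against 78.1 and 66.0 TPM in PC3 controls (log2 change 0.73, adjusted p = 0.00566), and DLST, part of the oxoglutarate dehydrogenase complex, had 69.5 and 64.6 TPM against 48.8 and 45.8 TPM (log2 change 0.49, adjusted p = 0.00984). Of the 9 genes of pyruvate entry 2 rose (22.2%) and 0 fell in PC3 by limma, against the same 7.67% and 9.33%, with 3 higher and 0 lower at an unadjusted p below 0.05. PDP1, the phosphatase that undoes the action of the pyruvate dehydrogenase kinases, had 59.0 and 61.5 TPM in PC3 TRIB1 libraries against 26.2 and 24.3 TPM in PC3 controls (log2 change 1.23, adjusted p = 0.00427), and DLAT, a core subunit of the complex, had 40.8 and 36.8 TPM against 27.4 and 21.6 TPM (log2 change 0.65, adjusted p = 0.0207). GOT1 and GOT2, aspartate aminotransferases of the malate-aspartate shuttle, were the 2 of 5 shuttle genes that rose in PC3 (log2 change 0.38, adjusted p = 0.0364 and 0.30, adjusted p = 0.0238). In that list 0 fell in PC3 by limma, where 7.67% of all genes rose and 9.33% fell. At an unadjusted p below 0.05, 3 of the 5 were higher and 0 lower in PC3, and likewise 3 and 0 in DU145.

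The pentose phosphate and glycogen lists moved both ways in PC3. Of 9 pentose phosphate genes 2 rose (22.2%) and 3 fell (33.3%), where 7.67% and 9.33% of all genes did. H6PD, an enzyme of the endoplasmic reticulum, was among the falls, at 2.61 and 2.33 TPM in PC3 TRIB1 libraries against 6.50 and 7.62 TPM in PC3 controls (log2 change -1.21, adjusted p = 0.00489). Of 12 tested genes of gluconeogenesis and glycogen 2 rose (16.7%) and 5 fell (41.7%). The 2 glycogen phosphorylases in the list, PYGL and PYGB, were among the falls. PYGL stood at 100.2 and 98.3 TPM in PC3 TRIB1 libraries against 213 and 185 TPM in PC3 controls (log2 change -0.99, adjusted p = 0.00167). PYGB stood at 129 and 120.1 TPM against 200.4 and 209 TPM (log2 change -0.71, adjusted p = 0.00272). Of 17 tested genes in the list of other glycolytic and transport genes 2 rose and 2 fell (11.8% each), close to the shares over all genes. EMB, which encodes embigin, a partner of monocarboxylate transporters, had 0.830 and 0.939 TPM in PC3 TRIB1 libraries against 5.08 and 4.48 TPM in PC3 controls (log2 change -1.62, adjusted p = 0.00109), and ARRDC4 is given above.

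Of 13 genes of transcription factors and HIF control, 2 rose and 2 fell in PC3 (15.4% each), against 7.67% and 9.33% of all genes. EPAS1, which encodes the hypoxia factor HIF2A, fell in both lines, to 53.9 and 53.1 TPM in PC3 TRIB1 libraries against 86.0 and 87.3 TPM in PC3 controls (log2 change -0.68, adjusted p = 0.0043), and to 35.7 and 36.1 TPM in DU145 TRIB1 libraries against 53.9 and 61.3 TPM in DU145 controls (log2 change -0.66, adjusted p = 0.0162). HIF1A, the other oxygen-regulated subunit, had 173 and 175 TPM in PC3 TRIB1 libraries against 216 and 195 TPM in PC3 controls without passing (log2 change -0.24, adjusted p = 0.0671), and fell in DU145 to 89.0 and 94.3 TPM with TRIB1 against 132 and 139.7 TPM in controls (log2 change -0.56, adjusted p = 0.0201). These are transcript levels, and the proteins are controlled mainly by their breakdown. MYC passed in neither line, at 193 and 189 TPM in PC3 TRIB1 libraries against 138 and 178 TPM in PC3 controls (log2 change 0.28, adjusted p = 0.172) and at 33.8 to 35.5 TPM in all DU145 libraries. The other passed genes of the lists in DU145, chosen after their values were seen, were PPP1R3C, a glycogen-targeting subunit of a phosphatase, which rose (log2 change 0.89, adjusted p = 0.0486), and DLD, a subunit that several dehydrogenase complexes share, which fell (log2 change -0.41, adjusted p = 0.0271).

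**Figure D5:**
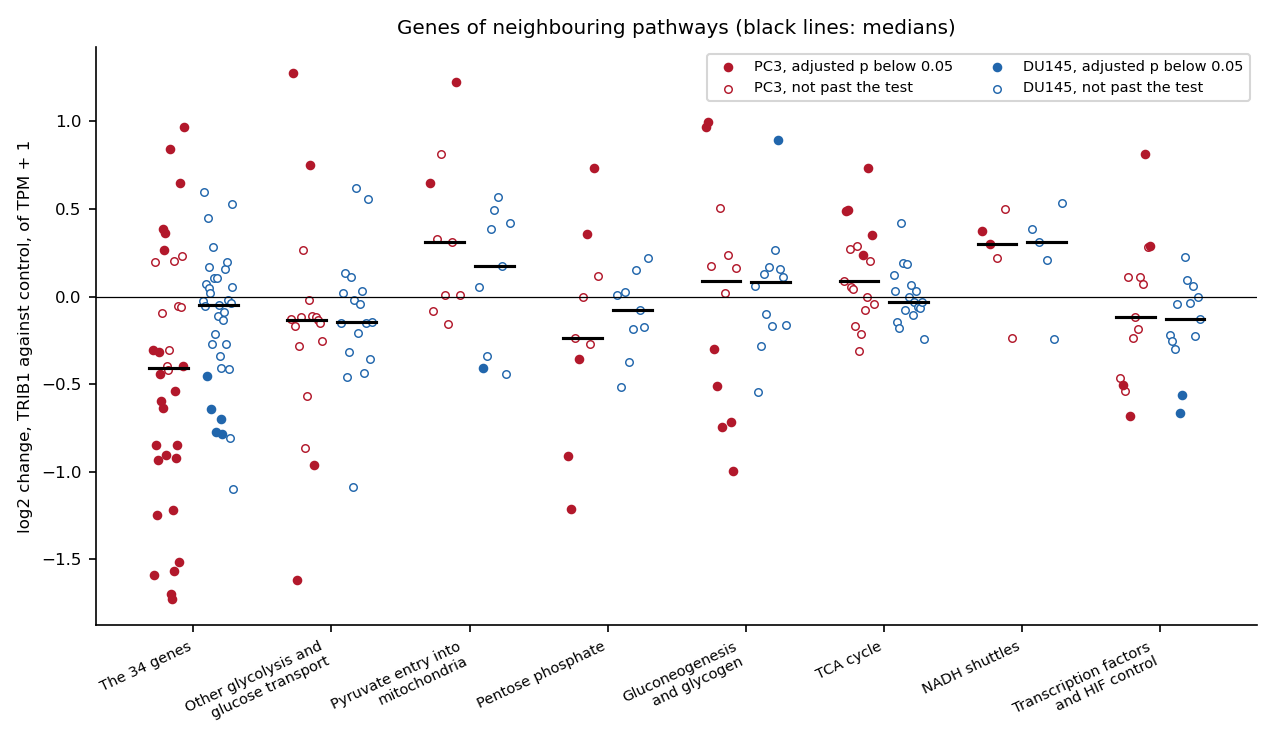
Log2 change of TPM + 1, TRIB1 against control, of the 34 genes and of the tested genes of 7 neighbouring lists, 1 point per gene, red for PC3 and blue for DU145, filled where the adjusted p is below 0.05. Black lines are medians, which lie at -0.41 in PC3 and -0.049 in DU145 for the 34 genes and at 0.091 in PC3 and -0.032 in DU145 for the tricarboxylic acid cycle.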

How the data were processed

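RNA sequencing values of 8 libraries were analysed from 1 deposited table of 57905 genes, in which the authors give TPM, and each column sums to 1000000. TopHat2 2.0.14, HTSeq, DESeq, edgeR and hg38 are listed in the submitters' processing notes, without role or order. The tool behind the TPM values, the gene lengths used and the strand setting were not given in the sources used here. GENCODE 29 (GRCh38) holds 52338 of the identifiers, of which 365 start at the listed base, 0 of them among the 34 genes, so listed intervals are not printed and their build is not stated. PGK1, LDHB and PKM are listed with a transcript type other than protein-coding.

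Groups and replicate numbers were read from sample titles. Genes with a group mean of at least 1 TPM were fitted with limma 3.58.1 (R 4.3.3) on log2(TPM + 1) with a mean-variance trend, as 4 group means over 8 libraries, with 4 residual and 1.89 prior degrees of freedom. A log2 change on this scale understates that of low genes. P-values were Benjamini-Hochberg adjusted over 25982 genes. The procedure was tested on simulated data, but no recovery or error rate is given here, so no conclusion is drawn from that test. Alternatives were other scalings (median of ratios, upper quartile), a pseudocount of 0.1 or 5, no filter or at least 5 TPM, protein-coding genes alone, no trend, the replicate number as a block, the 4 libraries of a comparison alone, and each library left out.

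The members and lists were chosen with earlier results of these data known. Per-library values are given for genes called in a TRIB1 comparison or past the test of the difference between lines, and always for SLC2A1, SLC2A3, HK2, PFKP, PFKFB3, PFKFB4, ENO1, ENO2, PKM, LDHA, LDHB, SLC16A1, SLC16A3, PDK1, PDK4 and TXNIP. Of each pathway list the 2 genes with the smallest p in PC3 are named, with BSG, HIF1A, MYC and ARRDC4 always, except that 1 pentose phosphate gene is not reported here. Depth cannot be read from TPM, so no counting interval is given. Pseudogene copies held at most 2.38% of the TPM of any of the 34 genes other than SLC2A3.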

Additional observations from a re-analysis of the deposited data

Results flagged for a closer look

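For 18 of the 34 genes the log2 change in PC3 differed from that in DU145 past the limma test of the difference itself (adjusted over 25982 genes). Each value is the change in PC3 minus the change in DU145. Of the glycolytic enzymes, ALDOC differed by -2.19, PFKP by -1.48, ENO3 by -1.38, PKM by -1.04, ENO1 by -0.92, ENO2 by -0.80, PGAM1 by -0.70, PGK1 by -0.65, HK1 by -0.62, GPI by -0.49 and GAPDH by -0.49. Of the regulators and transporters, PFKFB3 differed by -1.29, PFKFB4 by -1.03 and SLC16A3 by -1.10. PFKFB2, SLC16A7, PDHB and TXNIP differed the other way, by 1.19, 1.46, 0.58 and 2.07. The adjusted p ran from 0.00317 (PKM) to 0.0322 (PFKFB2). The PC3 and DU145 changes had opposite signs in ALDOC, ENO3, PKM, PGAM1, GAPDH, GPI, HK1, ENO1, PFKFB2, SLC16A7, PDHB and TXNIP, although the DU145 change passed in none of them. The DU145 changes of HK1 (0.02, SE 0.07), GPI (0.05, SE 0.05) and ENO1 (0.07, SE 0.05) were small. Those of HK1 and ENO1 turned sign in DU145 with 1 library left out. PKM, ENO1, PGAM1, ENO2 and PDHB passed without any 1 library.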

How the results depend on the processing

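The 7 calls and the 19 falls in PC3 stayed within 1.5 times their number under every alternative and every library left out, and 14 of the 19 genes passed in all. With 2 libraries a group, unknown depth and values that are shares of a total, the smaller changes were not settled, and the cause of each shift below was not tested. Counts are of the 34 members unless stated. The 6 rises in PC3 became 3 without a mean-variance trend, 3 with the 4 PC3 libraries alone and 0 to 5 with 1 library left out, and called rises went to 1 (TXNIP) with median-of-ratios scaling. In DU145 the 5 falls became 2 with median-of-ratios scaling, 1 with upper-quartile scaling, 2 with no filter, 1 without a trend, 0 with the 4 libraries alone and 0 to 3 with 1 library left out. Called falls in DU145 became 1 with a pseudocount of 0.1, 1 with at least 5 TPM, 1 with protein-coding genes alone and 0 to 1 with 1 library left out, and rises became 3 with protein-coding genes alone. The 4 higher differences between lines became 2 without a trend and 1 to 3 with 1 library left out, and the 14 lower ones 4 to 15. The 2 members lower in PC3 than in DU145 controls became 0 with median-of-ratios scaling, 0 with upper-quartile scaling, 0 with no filter, 0 without a trend and 0 to 3 with 1 library left out. The median of that comparison moved to 0.68 with median-of-ratios and 0.65 with upper-quartile scaling. The log2 ratio of summed TPM in PC3 was -0.51 with median-of-ratios scaling, and the pathway genes that rose in DU145 became 5.

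Same-numbered libraries of a line did not deviate together over the genes as a whole (correlation -0.0103 in PC3 and -0.0415 in DU145). Such a correlation cannot exclude a shared culture or preparation that affects some genes. The labels do not say whether same-numbered libraries were paired, so the fit with a block is not set aside. With the replicate number as a block, members that rose in PC3 became 1, those that fell in DU145 became 0, the higher and lower differences between lines 1 and 0, and the lower members of the controls comparison 1. PKM, ENO1, PGAM1, ENO2 and PDHB then differed between lines at an adjusted p of 0.0559 to 0.0767.

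Log2 changes that turned sign did not pass as first fitted. With median-of-ratios scaling SLC16A1 was 0.0034 in PC3, and in DU145 SLC2A1 was 0.038, ALDOA 0.052, BPGM 0.019, SLC16A1 0.055 and PDK4 0.0072. With upper-quartile scaling in DU145 SLC2A1 was 0.0061, ALDOA 0.020 and SLC16A1 0.024, and with protein-coding genes alone ALDOA was 0.012 and SLC16A1 0.015. Between the controls, with median-of-ratios scaling, ALDOA was 0.14, GAPDH 0.19, PGAM1 0.21, ENO3 0.015, LDHB 0.072 and PDK4 0.038, and with upper-quartile scaling ALDOA was 0.12, GAPDH 0.16, PGAM1 0.18, LDHB 0.044 and PDK4 0.019. GAPDH and PGAM1 passed between the controls with median-of-ratios scaling. With 1 library left out the DU145 changes ran from -0.11 to 0.064 for ALDOA, -0.20 to 0.089 for BPGM, -0.0008 to 0.14 for ENO1, -0.049 to 0.089 for HK1, -0.11 to 0.021 for PDK4, -0.17 to 0.13 for SLC16A1 and -0.060 to 0.17 for TPI1. In PC3 they ran from -0.25 to 0.13 for SLC2A1 and -0.28 to 0.74 for SLC2A3. The difference between lines ran from -0.18 to 0.12 for SLC16A1, -0.21 to 0.17 for SLC2A1 and -0.81 to 0.21 for SLC2A3, and that between the controls from -0.43 to 0.0018 for ENO3, -0.18 to 0.30 for PFKFB2 and -0.064 to 0.021 for PGAM1.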
